A study of Mus musculus with 6 samples.

Results

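The levels of 6 genes of thyroglobulin and hydrogen peroxide generation, *Tg*, *Duox1*, *Duox2*, *Duoxa1*, *Duoxa2* and *Nox4*, were compared in mouse thyroid. They were chosen by name, as the rows of the deposited count table with these symbols, and all 6 were found among its 21878 genes. Bulk RNA-seq was performed on thyroids of female mice aged 12 weeks, 3 Thy-Tet1+/+ and 3 Thy-Tet1-/-. In the Thy-Tet1-/- mice *Tet1*, which encodes a dioxygenase of 5-methylcytosine in DNA, was to be deleted from floxed alleles by a Cre recombinase active in thyroid follicular epithelial cells, so the other cells of the gland should keep the gene. The labels give the controls as WT, name no further agent or allele for either group, and number 1 biosample per library. None of the 6 genes met the limits for a difference between the groups. *Tg* was 0.742-fold and did not overlap between them, beside 14.3% of all tested genes that did not overlap in this direction. Of 16 genes for folding and export of secreted proteins 8 were called lower, beside 3.66% of all tested genes, and 0 of the 16 had an edgeR adjusted p below 0.05. This list was drawn up with earlier results of these data known, so the count is a description. Over the alternatives 1 to 10 of its genes were called.

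Thyroglobulin, the product of *Tg*, is the large secreted glycoprotein on whose tyrosines thyroid hormone is made and which is stored as colloid in the follicle lumen. Its iodination at the apical membrane needs hydrogen peroxide. The dual oxidases DUOX1 and DUOX2 make this peroxide with electrons from NADPH, and each needs a maturation factor, DUOXA1 or DUOXA2, to leave the endoplasmic reticulum. NOX4 is a related oxidase of intracellular membranes that forms a complex with p22phox, the product of *Cyba*.

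The 4 *Duox* and *Duoxa* genes lie together on chromosome 2 (GRCm38), each oxidase head to head with its maturation factor. *Duox2* (NCBI gene 214593, minus strand, chr2:122279247-122298449) and *Duoxa2* (66811, plus strand, chr2:122298900-122302885) start 451 bp apart. *Duoxa1* (213696, minus strand, chr2:122302191-122313730) and *Duox1* (99439, plus strand, chr2:122315672-122347972) start 1942 bp apart. The 3′ ends of *Duoxa1* and *Duoxa2* meet, and 682 bp of their annotated exons overlap on opposite strands, which is 42.8% of the exon bases of *Duoxa2* and 17.2% of those of *Duoxa1*. Whether the counting used strand is not given in the sources used here, so counts from this overlap could have gone to either gene and the values of both maturation factors are uncertain to that extent. *Tg* (21819, plus strand, chr15:66670753-66850721) holds *Sla* on its opposite strand with 0 bp of shared exon, and 112 bp of its exons overlap the antisense transcript *Gm17140*, which is not among the rows analysed here. *Nox4* (50490, plus strand) lies at chr7:87246096-87398710.

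**Figure D1:**
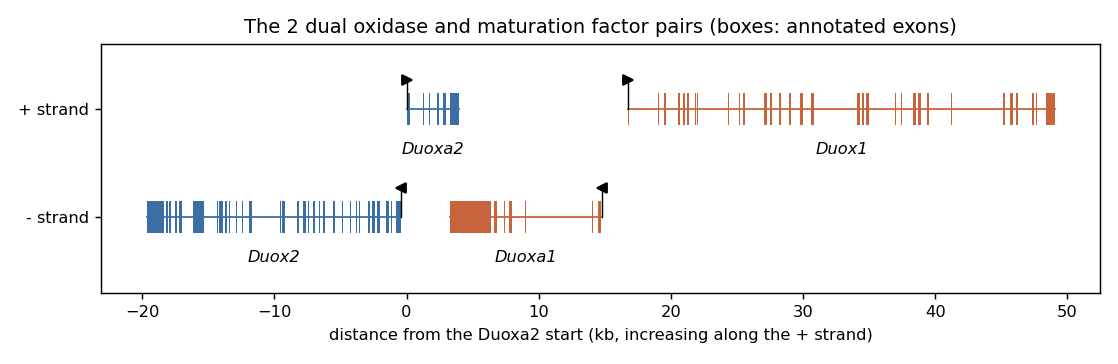
Map of the 4 dual oxidase and maturation factor genes, drawn to scale as distance in kb from the *Duoxa2* start, with the plus strand above and the minus strand below. Boxes are annotated exons and flags mark starts; the starts of *Duox2* and *Duoxa2* are 0.451 kb apart and those of *Duoxa1* and *Duox1* 1.942 kb apart.

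The 250 bases before the RefSeq start (GRCm38.p6) are shown for *Duoxa2*, *Duoxa1* and *Duox1*, because each pair of genes shares the stretch between its starts. Each is written 5′ to 3′ on its gene's strand, with matches to the searched motifs in capitals.
Duoxa2 (chr2:122298650-122298899, plus strand): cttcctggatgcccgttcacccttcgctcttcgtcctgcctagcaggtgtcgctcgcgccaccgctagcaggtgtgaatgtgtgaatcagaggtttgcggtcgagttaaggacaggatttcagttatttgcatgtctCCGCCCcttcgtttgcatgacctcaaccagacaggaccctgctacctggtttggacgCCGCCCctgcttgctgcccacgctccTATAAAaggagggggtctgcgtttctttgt
Duoxa1 (chr2:122313731-122313980, minus strand): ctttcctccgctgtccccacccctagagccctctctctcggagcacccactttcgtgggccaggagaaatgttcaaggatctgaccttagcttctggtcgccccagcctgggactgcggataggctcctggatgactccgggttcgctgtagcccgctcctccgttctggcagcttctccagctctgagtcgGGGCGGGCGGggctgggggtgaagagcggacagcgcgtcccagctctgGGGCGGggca
Duox1 (chr2:122315422-122315671, plus strand): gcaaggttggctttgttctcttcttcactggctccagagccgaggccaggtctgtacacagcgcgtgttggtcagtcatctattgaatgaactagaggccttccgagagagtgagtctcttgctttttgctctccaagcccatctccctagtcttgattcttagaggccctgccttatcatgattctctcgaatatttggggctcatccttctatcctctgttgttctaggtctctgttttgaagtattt

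Motifs were searched on both strands. The letters TATAAA stood for the TATA box and GGGCGG for the SP1 core, which binds the SP1 family. The E-box was searched as CACGTG and the core of the cAMP response element as TGACGT. The core bound by NKX2-1 was searched as CAAGTG. The *Duoxa2* window, which lies wholly between the starts of *Duox2* and *Duoxa2*, held the TATA box 30 bases before the start and the SP1 core at 56 and 113 bases. The *Duoxa1* window held the SP1 core at 10, 54 and 58 bases, the last pair overlapping each other. The *Duox1* window held none of the 5 motifs. Among 32851 RefSeq windows of this length, 12.4% held the TATA box, 32.7% the SP1 core, 6.02% the E-box, 6.47% the cAMP response core and 11.6% the NKX2-1 core. The GC content was 65.6% in the *Duoxa1* window, 56.4% in that of *Duoxa2* and 47.6% in that of *Duox1*, beside a median of 52.4% over all windows. The *Duoxa1*, *Duoxa2* and *Duox1* windows held 16, 15 and 5 CG dinucleotides, beside a median of 6. The windows of *Duox2*, of which 222 bases are annotated exon, and *Nox4* are not shown.

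The libraries held 8867683 to 19950898 counts. *Tet1* itself had 48, 71 and 62 counts in the Thy-Tet1+/+ controls, against 172, 162 and 241 in those labelled Thy-Tet1-/-, a rise of 1.28 on the log2 scale (SE 0.27; edgeR adjusted p = 0.101). This goes against the label as a measure of whole-gene counts, and counts over the whole gene cannot show whether the floxed part was present. Every direction below is therefore given for the libraries labelled Thy-Tet1-/-. Levels are in CPM, the counts of a gene relative to its library's total after TMM scaling. A gene was called where its log2 fold change exceeded 0.585 (1.5-fold) in either direction with an unadjusted p below 0.05, and the p adjusted over all 14143 tested genes is given beside it. By these limits 1301 genes (9.2%) were called, 783 (5.54%) higher and 518 (3.66%) lower, while 16 (0.113%) had an adjusted p below 0.05 by edgeR and 1192 of 13223 (9.01%) by DESeq2. Of the 6 genes, 0 were called. Before adjustment 1 of the 6, *Tg*, had a p below 0.05, beside 2676 (18.9%) of all tested genes. At an adjusted p below 0.05 there were 0 of 6 by edgeR, 0 by limma-voom and 1, *Tg*, by DESeq2. In 1 of the 6, again *Tg*, the groups did not overlap, beside 26.8% of all tested genes in either direction and 14.3% with the libraries labelled Thy-Tet1-/- lower.

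*Tg* was the gene with the most counts in every library. It stood at 252697, 313667 and 285590 CPM in the Thy-Tet1+/+ controls and at 205155, 236526 and 190892 CPM in those labelled Thy-Tet1-/-. The groups did not overlap, with every control the higher. The means were 283985 ± 30516 and 210858 ± 23345 CPM (SD, n = 3). The log2 fold change was -0.43 (SE 0.18; edgeR p = 0.0495, adjusted p = 0.262, two-sided exact permutation p = 0.1), which is within the 1.5-fold limit. As a fold this was 0.742, with a 95% interval of 0.552 to 0.999. By DESeq2 the adjusted p was 0.0449, and over all alternatives it ran from 0.0449 to 0.795. In bulk tissue, fewer cells of a type and less RNA per cell cannot be told apart.

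As a share of all counts, without any scaling between libraries, *Tg* took 24.0%, 29.4% and 26.4% in the Thy-Tet1+/+ controls, against 22.0%, 24.0% and 21.2% in those labelled Thy-Tet1-/-. The lowest control and the highest library labelled Thy-Tet1-/- nearly met, at 24.02% (95% Wilson interval 23.99% to 24.05%) and 24.01% (23.99% to 24.04%), so that the groups were separated by less than the counting error at that edge. The mean shares were 26.6% ± 2.7 and 22.4% ± 1.45 (SD, n = 3), a difference of -4.21 percentage points (two-sided exact permutation p = 0.1, the smallest that 3 against 3 allows). Such intervals cover counting error only.

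Scaling the libraries to 10 epithelial genes in place of all genes turned the *Tg* difference to 0.06, with the median of all tested genes shifted from 0.00 to 0.47. Relative to that median *Tg* was -0.42, beside -0.43 with TMM scaling. Rescaling shifts all genes nearly alike, so this nearness follows by construction and does not test the *Tg* difference. As a sum the epithelial genes were themselves lower in the libraries labelled Thy-Tet1-/-, at 2051 to 2789 CPM in the controls and 1615 to 1698 CPM in the others. Of the 10, 3 (*Cdh1*, *Krt7* and *Krt8*) were called lower, beside 3.66% of all tested genes. The part of the epithelial genes in the *Tg* difference was not tested.

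DUOX2 is the main thyroid oxidase in hormone synthesis. *Duox2* stood at 74.5, 45.0 and 37.2 CPM in the Thy-Tet1+/+ controls and at 42.3, 35.6 and 42.1 CPM in those labelled Thy-Tet1-/-. The first control was far above the other 5 libraries, which lay between 35.6 and 45.0 CPM. The means were 52.2 ± 19.7 and 40.0 ± 3.79 CPM (SD, n = 3), and the difference of -0.38 on the log2 scale (SE 0.26, 95% interval -0.99 to 0.23) did not pass the test (edgeR adjusted p = 0.471). Without Thy-Tet1+/+ replicate 1 it was -0.04.

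*Duox1*, which encodes the other dual oxidase, was near the low end of what these libraries could measure. It had 31, 58 and 34 counts in the Thy-Tet1+/+ controls, against 50, 17 and 66 in those labelled Thy-Tet1-/-. In CPM this was 3.68, 3.10 and 1.89 beside 2.72, 1.01 and 3.35, and the groups overlapped throughout. The lowest library, with 17 counts, had an exact Poisson 95% interval of 9.90 to 27.2 counts. The difference was -0.28 on the log2 scale (SE 0.52; edgeR adjusted p = 0.820), its 95% interval of -1.51 to 0.95 takes in both a 0.352-fold and a 1.93-fold level, and it was 0.08 without Thy-Tet1-/- replicate 2. *Duox1* gave 4.70%, 6.45% and 4.83% of all dual oxidase counts in the controls and 6.05%, 2.75% and 7.38% in the others, so *Duox2* gave most of them in every library.

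**Figure D2:**
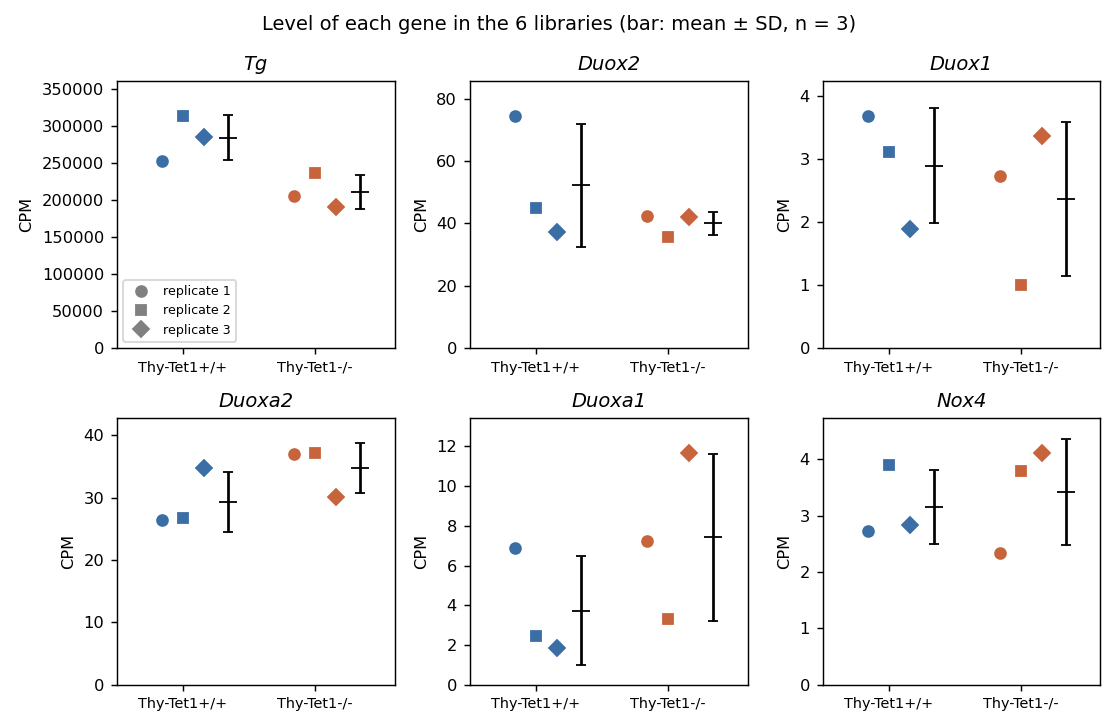
Level of each of the 6 genes in each library, in CPM, with the mean and SD of each group of 3 drawn beside its points; each axis starts at 0. The groups are apart for *Tg*, the first control stands alone at 74.5 CPM for *Duox2*, and *Duoxa1* ranges from 1.83 to 11.7 CPM.

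*Duoxa2*, whose product takes DUOX2 to the cell surface, stood at 26.3, 26.8 and 34.8 CPM in the Thy-Tet1+/+ controls and at 37.0, 37.2 and 30.1 CPM in those labelled Thy-Tet1-/-. The lowest library labelled Thy-Tet1-/- was below the highest control. The means were 29.3 ± 4.75 and 34.8 ± 4.02 CPM (SD, n = 3), which gave a log2 difference of 0.24 (SE 0.16, 95% interval -0.14 to 0.62; edgeR adjusted p = 0.452). With the libraries scaled to the epithelial genes it was 0.72 and was called (edgeR adjusted p = 0.0746). Relative to the shifted median of all genes it was 0.24, a return that follows by construction.

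*Duoxa1*, the maturation factor of DUOX1, varied more between libraries than any other of the 6 genes. It stood at 6.88, 2.46 and 1.83 CPM in the Thy-Tet1+/+ controls and at 7.25, 3.32 and 11.7 CPM in those labelled Thy-Tet1-/-. The first control was above the second library labelled Thy-Tet1-/-, so the groups overlapped. The means were 3.72 ± 2.75 and 7.42 ± 4.19 CPM (SD, n = 3) and the log2 fold change 1.02 (SE 0.64, 95% interval -0.50 to 2.55; edgeR adjusted p = 0.435). Without Thy-Tet1+/+ replicate 1 it was 1.78 and was called (edgeR adjusted p = 0.190), and over the 6 fits that each left out 1 library it ran from 0.55 to 1.78. *Scgb1a1*, a secretory marker of airway epithelium singled out after its values were seen, ordered the libraries as *Duoxa1* did, on 2 to 57 counts. It stood at 1.19, 0.16 and 0.11 CPM in the controls and 1.31, 0.47 and 2.90 CPM in the others. The other airway markers did not give this order. *Bpifa1*, for example, stood at 55.0, 257 and 6.33 CPM in the controls and 94.5, 62.2 and 116 CPM in the others. The part of airway tissue in the *Duoxa1* values was not tested. The counts behind *Duoxa1* were 58, 46 and 33 in the controls and 133, 56 and 230 in the others. *Duoxa2*, with which it shares exon bases, had 222, 501 and 627 counts beside 679, 628 and 593, and was lower in Thy-Tet1-/- replicate 3, where *Duoxa1* was highest, than in the other 2 libraries of that label.

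*Nox4* stood at 2.73, 3.90 and 2.83 CPM in the Thy-Tet1+/+ controls and at 2.34, 3.79 and 4.12 CPM in those labelled Thy-Tet1-/-. Both groups covered nearly the same range. The log2 fold change was 0.11 (SE 0.34, 95% interval -0.71 to 0.93; edgeR adjusted p = 0.902), and it was -0.06 without Thy-Tet1-/- replicate 3. The interval leaves room for a 0.612-fold as well as a 1.91-fold level.

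**Figure D3:**
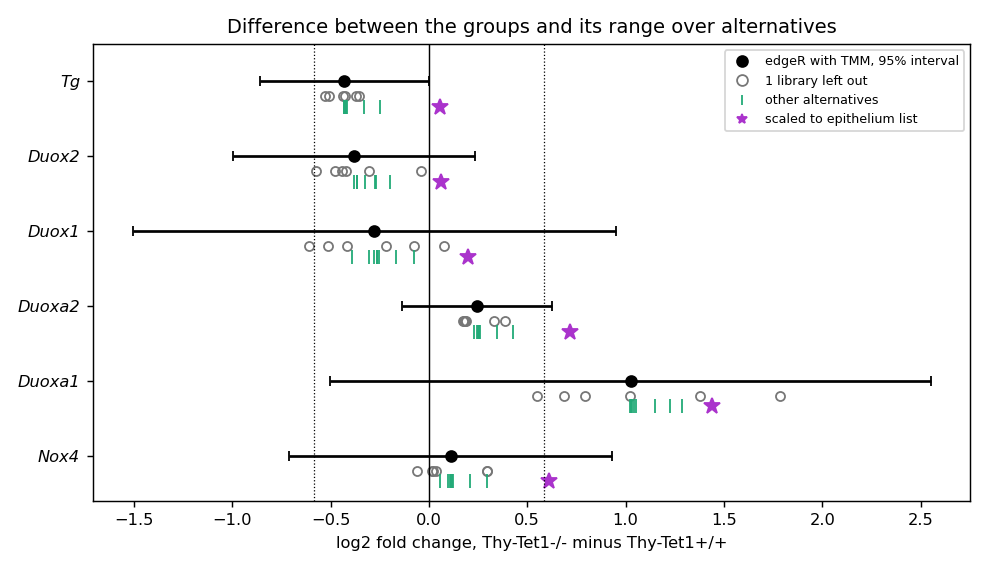
Log2 fold change of each gene, libraries labelled Thy-Tet1-/- minus Thy-Tet1+/+. Black points are the edgeR fit with TMM scaling and its 95% interval, open circles the fits without 1 library, green ticks the other alternatives and stars the scaling to the epithelial genes, and dotted lines mark 1.5-fold. *Duoxa2* has the narrowest interval (-0.14 to 0.62) and *Duoxa1* the widest (-0.50 to 2.55).

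To set the genes beside each other, CPM was divided by the length of the principal annotated transcript in kb (8.454 for *Tg*, 5.744 for *Duox2*, 5.267 for *Duox1*, 1.592 for *Duoxa2*, 1.506 for *Duoxa1* and 3.753 for *Nox4*). On this scale the control means were 33592 CPM per kb for *Tg*, 18.4 for *Duoxa2*, 9.09 for *Duox2*, 2.47 for *Duoxa1*, 0.840 for *Nox4* and 0.548 for *Duox1*. The means in the libraries labelled Thy-Tet1-/- kept this order, at 24942, 21.8, 6.96, 4.92, 0.910 and 0.448 CPM per kb. *Duoxa2* was above *Duox2* in 6 of 6 libraries, with means 2.02 times as high in the controls and 3.14 times in the others. Neighbouring ranges overlapped for *Duox2* and *Duoxa1*, where *Duox2* was higher in 5 of 6 libraries, and for *Nox4* and *Duox1*. The level of *Duoxa1* depends on the transcript taken, since its longest annotated one has 2467 bases in place of 1506.

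Ratios of counts within a library do not depend on how libraries are scaled, and 5 were compared. The *Duox1* to *Duoxa1* ratio was 0.538, 1.26 and 1.03 in the Thy-Tet1+/+ controls and 0.378, 0.310 and 0.289 in those labelled Thy-Tet1-/-. Every control was above every library labelled Thy-Tet1-/-. On the log2 scale the means were -0.17 ± 0.64 and -1.63 ± 0.20 (SD, n = 3), a difference of -1.46 (two-sided exact permutation p = 0.1, the smallest this design allows; adjusted over the 5 ratios, p = 0.5). Leaving out each library in turn gave -1.82 to -1.20. The *Duoxa1* counts in it carry the uncertainty of the shared exon bases. Both genes had few counts, 17 to 66 for *Duox1* and 33 to 230 for *Duoxa1*. The groups did not overlap in 26.8% of all single tested genes, and no such share was obtained for ratios.

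The *Duox2* to *Duoxa2* ratio was 2.82, 1.68 and 1.07 in the controls and 1.14, 0.957 and 1.40 in the others. The groups overlapped, with a difference of -0.58 on the log2 scale (exact permutation p = 0.3, adjusted p = 0.75). The *Duoxa1* to *Duoxa2* ratio ran from 0.053 to 0.263 in the controls and from 0.090 to 0.388 in the others (difference 0.80, exact permutation p = 0.5, adjusted p = 0.833). For *Duox1* to *Duox2* the difference was -0.08 (exact permutation p = 0.9, adjusted p = 0.9), and for *Duox2* to *Tg* it was 0.10 (exact permutation p = 0.8, adjusted p = 0.9). The directions of these last 2 turned when single libraries were left out.

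**Figure D4:**
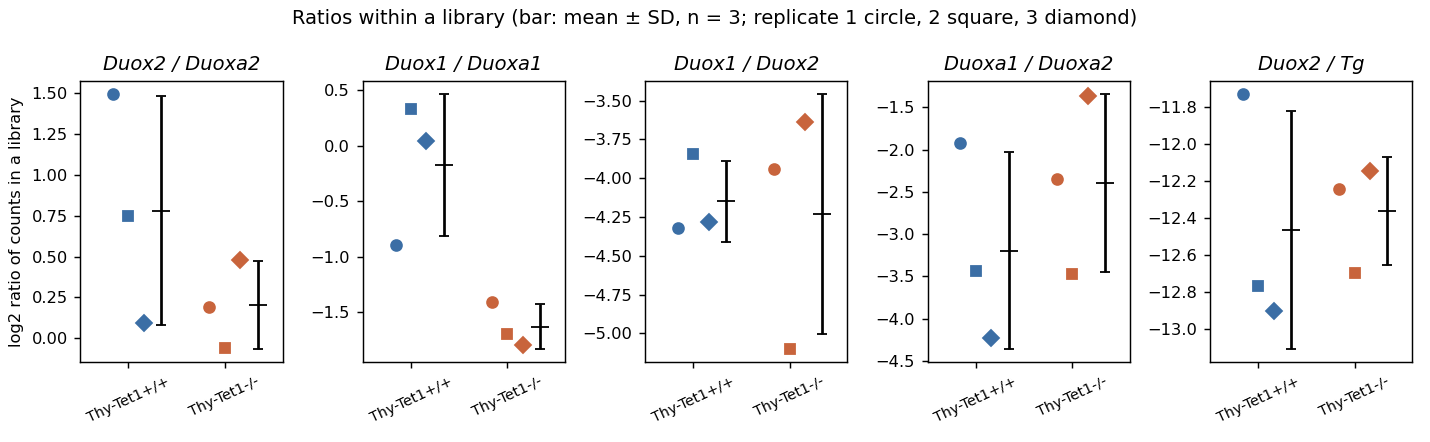
Log2 ratio of the counts of the named genes in each library for the 5 pairs, with the mean and SD of each group of 3; the vertical axes differ between panels and do not start at 0. The groups are apart only for *Duox1* / *Duoxa1*, where the libraries labelled Thy-Tet1-/- lie between -1.79 and -1.40 and the controls between -0.89 and 0.33.

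In profile over the 6 libraries (log2 CPM centred on each gene's mean), the genes nearest to *Tg* among 9941 other tested genes of at least 10 CPM were *Lrp10*, *Tmem64* and *Lsr*, at a mean absolute difference of 0.057, 0.058 and 0.058. Nearest to *Duox2* were *Lzic*, *Zfp605* and *Mgat4a*, at 0.058, 0.058 and 0.071. Between members the smallest such differences were 0.323, for *Tg* and *Nox4* and for *Duoxa2* and *Nox4*, while *Duox2* and *Duoxa2* were 0.420 apart and *Duox1* and *Duoxa1* 0.706. The distances to the nearest genes are minima over 9941 genes and so small by selection. *Duox1*, *Duoxa1* and *Nox4* were below the 10 CPM asked of those genes, so counting error weighs more in their distances. The 2 kinds of distance therefore cannot show that the members vary apart.

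The other genes of the pathway were taken from 6 lists of 65 genes in all, of which 60 were tested. Of these 12 were called, beside 9.2% of all tested genes. They were split into 11 lower (3.66% of all tested genes) and 1 higher (5.54%) with the label Thy-Tet1-/-, and their median log2 fold change was -0.19, beside 0.00 over all tested genes. The lists were drawn up with earlier results of these data known, so their counts are descriptions.

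Most of the lower calls lay in the list for thyroglobulin folding and export, the chaperones, disulfide isomerases and translocation factors that large secreted proteins pass through in the endoplasmic reticulum. Of its 16 genes 8 were called lower, beside 3.66% of all tested genes, and 0 higher. In 10 the groups did not overlap, each with the libraries labelled Thy-Tet1-/- lower, beside 14.3% of all tested genes in this direction. All 16 fold changes were negative, with a median of -0.59. The adjusted p was below 0.05 for 0 of 16 by edgeR, where 11 had a p below 0.05 before adjustment (18.9% of all tested genes), and for 9 by DESeq2 (9.01%). The summed level of the list was 13709 to 17837 CPM in the controls and 10525 to 12785 CPM in the others.

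*Dnajb9*, a co-chaperone of BiP, had the largest fold change of the list. It stood at 361, 257 and 359 CPM in the Thy-Tet1+/+ controls and at 127, 125 and 135 CPM in those labelled Thy-Tet1-/-, and so fell by 1.33 on the log2 scale (SE 0.16; edgeR adjusted p = 0.0555). *Hyou1*, a chaperone of the lumen, stood at 1468, 561 and 781 CPM beside 421, 377 and 418 CPM (log2 fold change -1.21, SE 0.34; edgeR adjusted p = 0.145). *Hspa5*, which encodes BiP, stood at 3640, 2936 and 4103 CPM beside 2404, 2101 and 2160 CPM (log2 fold change -0.68, SE 0.17; edgeR adjusted p = 0.118). In these 3 genes every library labelled Thy-Tet1-/- was below every control.

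The other 5 called were *Sel1l*, a part of the complex that removes misfolded proteins (-0.82), *Ero1lb* (-0.72) and *Ero1l* (-0.62), oxidases that recharge the disulfide isomerases, *Sec61a1*, the translocation channel (-0.64), and *Pdia4*, a disulfide isomerase (-0.89), the last with overlapping groups. *Hsp90b1*, a chaperone known to bind thyroglobulin and the most abundant of the list after *Hspa5*, was at -0.07 (edgeR adjusted p = 0.865). The summed CPM of the list was 6.75%, 4.37% and 6.25% of that of *Tg* in the controls and 6.23%, 4.81% and 5.51% in the others, with overlapping groups. Scaling to the epithelial genes left 1 of the 16 called lower and 10 with a negative fold change, at a median of -0.11. Relative to the shifted median of all genes this was -0.58, near the value with TMM scaling by construction. Scaling to library totals, which shifted the median of all genes to 0.19, left 4 called lower, and leaving out each library in turn gave 6 to 10. The calls lost on leaving out 1 library were *Pdia4* (without Thy-Tet1+/+ replicate 1), *Hspa5* (without Thy-Tet1+/+ replicate 3), *Sec61a1* (without either of these) and *Ero1l* (without replicate 2 of either group).

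**Figure D5:**
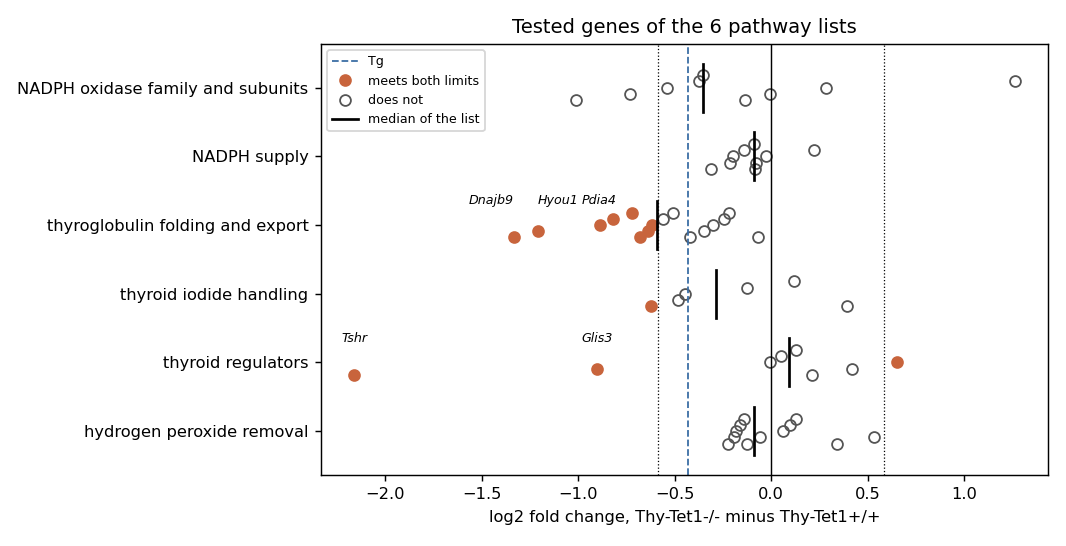
Log2 fold change of each tested gene of the 6 lists, libraries labelled Thy-Tet1-/- minus Thy-Tet1+/+. Filled points were called, open points were not, black bars are list medians, the dashed line is *Tg* (-0.43) and dotted lines mark 1.5-fold; vertical offsets only separate points. In the folding and export list all 16 points are below 0.

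In the other NADPH oxidase genes and their subunits 0 of 9 tested genes were called, beside 9.2% of all tested genes. *Rac1*, a small GTPase of oxidase complexes, and *Cyba*, the partner of NOX4, were the most abundant, with log2 fold changes of -0.13 (SE 0.19) and -0.36 (SE 0.17; edgeR adjusted p = 0.744 and 0.310). *Nox3* had 0 counts in every library, which allows up to 0.356 CPM in the library with the fewest counts and 0.160 CPM in that with the most. Of the 9 genes that supply NADPH, among them *Tkt* and *Me1*, 0 were called, with a median of -0.09. In these lists 7 of 9 and 8 of 9 fold changes were negative. Of the 12 genes that remove hydrogen peroxide 0 were called, with a median of -0.09. *Prdx6* and *Prdx1*, peroxiredoxins and the most abundant of that list, stood at 0.34 (SE 0.11; edgeR adjusted p = 0.179) and -0.19 (SE 0.21; adjusted p = 0.665).

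Of the iodide handling genes 1 of 6 tested was called, beside 9.2% of all tested genes. This was *Iyd*, the deiodinase that recovers iodide from iodotyrosines. It stood at 618, 1076 and 990 CPM in the controls and at 613, 593 and 534 CPM in the others (log2 fold change -0.62, SE 0.22; edgeR adjusted p = 0.204); the first control was just above the highest of the others. The *Iyd* call was lost in 5 of the 6 fits that left out 1 library, all but that without Thy-Tet1+/+ replicate 1, and in 5 of 9 other alternatives, and the calls in the list ran from 0 to 3. *Slc26a7*, an anion transporter needed for hormone synthesis, was at -0.49 (SE 0.20; edgeR adjusted p = 0.244). *Slc5a5*, the sodium iodide symporter, was at 0.12 (SE 0.24; edgeR adjusted p = 0.839).

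Among 8 thyroid regulators 2 were called lower and 1 higher, beside 3.66% and 5.54% of all tested genes. *Tshr*, the thyrotropin receptor, stood at 72.1, 76.2 and 94.7 CPM in the Thy-Tet1+/+ controls and at 18.2, 21.1 and 15.0 CPM in those labelled Thy-Tet1-/-, and so fell by 2.16 on the log2 scale (SE 0.18; edgeR adjusted p = 0.0466). *Glis3*, a transcription factor that acts downstream of thyrotropin, fell by 0.90 (SE 0.18; edgeR adjusted p = 0.0980). *Nkx2-1*, a transcription factor that binds the *Tg* promoter, rose by 0.65 (SE 0.22; edgeR adjusted p = 0.192), a call lost without Thy-Tet1+/+ replicate 3, Thy-Tet1-/- replicate 1 or Thy-Tet1-/- replicate 3. *Gnas*, the stimulatory G protein subunit and the most abundant of the list, was at 0.05 (SE 0.36; edgeR adjusted p = 0.957).

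All defining markers of follicular cells but *Slc26a4* passed the filter on low counts. *Slc26a4* had 1 to 5 counts a library and reached 3 counts in 2 of 6 libraries. Of 9 tested, 3 were called lower (*Tshr*, *Iyd* and *Dio1*) and 1 higher (*Nkx2-1*), beside 3.66% and 5.54% of all tested genes. The summed level of these markers was 2813 to 3382 CPM in the controls and 2462 to 2797 CPM in the others. Of the markers of neighbouring tissues and other cell types none was at 0 in all 6 libraries. The calls in those lists stand beside the same 2 shares, 3.66% lower and 5.54% higher. The summed level of parathyroid markers (0 of 6 called) was 159 to 19793 CPM in the controls and 6921 to 13409 CPM in the others, and that of skeletal muscle markers (0 of 10) was 901 to 7292 CPM and 18.2 to 8206 CPM. Adipocyte markers (3 of 8 called higher) stood at 190 to 627 CPM and 440 to 2014 CPM. C cell markers (1 of 6 called lower, the other 5 with positive fold changes) stood at 2527 to 5442 CPM and 4176 to 5484 CPM. Fibroblast markers (2 of 8 called higher) stood at 943 to 1164 CPM and 1019 to 1215 CPM, and endothelial markers (0 of 8) at 566 to 696 CPM and 557 to 786 CPM. Leukocyte markers (1 of 6 tested called lower) stood at 76.3 to 171 CPM and 61.5 to 199 CPM, the highest in Thy-Tet1-/- replicate 3, which was also the highest for *Duoxa1* and *Nox4*. Airway epithelium, another site of dual oxidase expression, gave markers (1 called higher and 1 lower of 8 tested) at 61.5 to 332 CPM and 113 to 188 CPM. In Thy-Tet1+/+ replicate 2, where this sum was highest, *Bpifa1* gave 257 of the 332 CPM. The part of these tissues in the values of the 6 genes was not tested.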

How the data were processed

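RNA-seq was performed on thyroids of 6 mice, 3 per group. The authors deposited 1 table of raw read counts per gene for all 6 libraries. Their processing notes name the build mm10, and the aligner, counter, annotation and use of strand are not given in the sources used here; the labels name a directional library kit beside another kit and speak of retinas in the extraction text. Of 21878 genes, 14143 passed filterByExpr of edgeR 4.0.16 (R 4.3.3), were scaled by TMM and tested with its quasi-likelihood test (Benjamini-Hochberg adjustment), and 27 symbols changed to dates were restored. The limits were a 1.5-fold change and p below 0.05. Ratios had 0.5 added to each count and were compared by exact permutation (scipy 1.17.1). Positions and transcript lengths are from GENCODE (GRCm38) and upstream windows from RefSeq (GRCm38.p6), where *Tg* was not matched. Named by rule were the 6 members, *Tet1*, and the called genes and 2 most abundant genes of each of the 6 pathway lists. The 3 nearest in profile to *Tg* and *Duox2* and genes overlapping a member were also named. Some other genes, among them markers of cell types, were named outside this rule, and not every called marker was named. The members and lists were chosen with earlier results of these data known. Depth ran from 8867683 to 19950898 counts per library, at which 3 counts are 0.152 to 0.356 CPM after TMM scaling. The design text counts each library as 1 mouse, and libraries of a group differed by far more than sampling noise (chi-square per gene 40.3 to 92.6). Alternatives were RLE size factors, DESeq2 1.42.0, limma-voom (limma 3.58.1), 2 other filters, 3 other scalings, a replicate block and each library left out. The fit was tested on simulated data. Some genes of the table are not reported here.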

Additional observations from a re-analysis of the deposited data

How the results depend on the processing

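Of 90 gene differences computed under alternatives 83 kept their direction and their side of the limits, of 40 ratio differences 35 kept their direction, and of 30 counts of calls 29 stayed within 1.5 times the reported count. As 0 of the 6 genes were called, a difference that shrank also counts as kept, such as *Duox2* at -0.04 without Thy-Tet1+/+ replicate 1. The first tally is therefore mostly one of repeated failures to meet the limits. Scaling to the epithelial genes turned *Tg* to 0.057, *Duox1* to 0.20 and *Duox2* to 0.063 on the log2 scale, brought *Duoxa2* to 0.72 past the limits, and raised the calls over all genes from 1301 to 3896; it shifts the median of all genes by construction, because those genes were lower. With 1 library left out, *Tg* ran from -0.53 to -0.35, *Duox2* from -0.58 to -0.04, *Duox1* from -0.61 to 0.08 (0.075 without Thy-Tet1-/- replicate 2), *Duoxa2* from 0.17 to 0.39, *Duoxa1* from 0.55 to 1.78 (past the limits at 1.78 without Thy-Tet1+/+ replicate 1) and *Nox4* from -0.06 to 0.30 (-0.061 without Thy-Tet1-/- replicate 3). The calls over all genes ran from 1074 to 1502 and those among the pathway genes from 8 to 15. The *Duox2* to *Duoxa2* ratio ran from -0.92 to -0.22, *Duox1* to *Duoxa1* from -1.82 to -1.20 and *Duoxa1* to *Duoxa2* from 0.28 to 1.43. The *Duox1* to *Duox2* ratio ran from -0.37 to 0.36, turning without Thy-Tet1+/+ replicate 2 (0.07) or Thy-Tet1-/- replicate 2 (0.36), and *Duox2* to *Tg* from -0.12 to 0.47, turning without Thy-Tet1+/+ replicate 2 (-0.05) or 3 (-0.12) or Thy-Tet1-/- replicate 3 (-0.00). The cause of the changes on leaving out a library was not tested.

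DESeq2 gave 1192 genes of all with an adjusted p below 0.05 where edgeR gave 16. Scaling to library totals raised the share of higher calls from 60.2% to 86.0%, leaving the counts of *Tg* out of the totals raised it to 77.2%, and scaling to the epithelial genes to 97.9%. Same-numbered libraries of the 2 groups deviated with correlations of -0.17, -0.37 and -0.19, and differently numbered ones with -0.07 to 0.24. These deviations are from the means of groups of 3 and balance around 0 by construction. They therefore cannot settle whether the replicate numbers pair the libraries. The replicate block gave 1145 calls in place of 1301 and a *Tg* difference of -0.43 (edgeR adjusted p = 0.417). The *Iyd* call was lost under it. Depth limits *Duox1*, *Duoxa1* and *Nox4* most, since their lowest libraries held 17, 33 and 23 counts.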
